A study of Mus musculus with 6 samples.

Results

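The genes described here are 9 enzymes of folate, methionine and threonine one-carbon metabolism, *Tdh*, *Gldc*, *Shmt1*, *Shmt2*, *Mthfd1*, *Mthfd2*, *Mat2a*, *Ahcy* and *Tyms*, found by matching the Ensembl identifiers of the expression table to these symbols. All 9 of the 9 symbols matched 1 row each among the 55774 rows of the table, and all 9 were expressed highly enough to be tested. RNA was sequenced from 6 pools of wild-type ICR mouse blastocysts, with 10 blastocysts in each pool. Embryos of hormonally stimulated and mated females had been flushed from the oviducts at the 2-cell stage and grown in CZB, a simple embryo medium, with extracellular vesicles of human Fallopian tubes added in both groups. In 3 pools the vesicles came from women with endometriosis (oEV-EMT), and in the other 3 from women labelled as having uterine fibroids (oEV-ctrl). The methods differ from this label and give cervical intraepithelial neoplasia as the reason for surgery in the control women. Both groups were cultured for the same time. Neither the labels nor the methods say whether the pools of a group came from separate culture runs or vesicle preparations, so the p-values below measure only the spread between these pools.

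Folate carries single carbon units from serine, glycine and threonine to the synthesis of purines and thymidylate and to methionine. Serine hydroxymethyltransferases and the glycine cleavage system load the folate, methylenetetrahydrofolate dehydrogenases change the oxidation state of the unit, and thymidylate synthase spends it. Methionine is turned into S-adenosylmethionine, the methyl donor for DNA, RNA and histones, and the spent donor is cleared by adenosylhomocysteine hydrolase. Mouse embryonic stem cells, which derive from the epiblast of the blastocyst, are known for feeding this cycle from threonine, through threonine dehydrogenase.

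The deposited values are FPKM, fragments per kilobase of transcript and 1000000 fragments of the library, so levels can be set against each other between genes. The table gives no read totals. The low values of genes with a single transcript fell on steps, which showed relative depths from 1 to 2.05 times that of the shallowest library, oEV-ctrl 1, with oEV-EMT 1 the deepest. Each gene was compared as log2(FPKM + 1) with limma over the 11924 genes that reached an FPKM of 1 in at least 3 libraries, a scale that understates the change of low genes. The median log2 fold change of all tested genes was 0.17 in the values as deposited and 0.01 after median-of-ratios scaling, and changes relative to this median are given beside the deposited ones. The labelled tissue was borne out by its markers, with 7 of 7 trophectoderm, 6 of 6 epiblast and 5 of 5 primitive endoderm genes expressed. Of the cumulus and granulosa markers, 0 of 6 were expressed. Of the oviduct markers, 1 of 4 was, *Wfdc2*, while *Foxj1* was listed at 0 in every library and *Ovgp1* and *Pax8* stayed under an FPKM of 1. Of the 6 oocyte and early cleavage markers, 1 was expressed, *Zp3*. The summed FPKM of the 6 epiblast markers was 145, 136 and 106 in oEV-EMT, against 56.9, 78.0 and 102 in oEV-ctrl. The groups were apart in this sum and in *Nanog*, *Pou5f1* and *Fgf4*, but overlapped in *Tdgf1*, *Klf2* and *Sox2*. *Sox2* had 3.24, 1.13 and 1.23 FPKM in oEV-EMT and 3.17, 1.99 and 2.13 in oEV-ctrl. The groups also did not overlap in the sum of the oviduct markers, at 101 to 132 in oEV-EMT and 73.8 to 82.2 in oEV-ctrl. Nor did they in the sum of the oocyte markers, at 1.22 to 1.81 and 0.371 to 0.909. The oviduct sum was almost wholly *Wfdc2*. The oocyte sum in oEV-EMT was mostly *Zp3*, and the other oocyte markers stayed under an FPKM of 1. The sums of the trophectoderm and primitive endoderm markers overlapped. *Gata4* (7.46 to 11.3 FPKM against 4.17 to 5.07) and *Sox7* (3.55 to 5.93 against 2.14 to 3.39) were nonetheless higher in oEV-EMT without overlap. The primitive endoderm genes *Gata6*, *Sox17* and *Pdgfra* overlapped, as did every trophectoderm marker. Among all tested genes, 18.1% were higher in oEV-EMT without overlap. The part of these markers in the values below was not tested. In pooled blastocysts, more cells of a type and more RNA per cell cannot be told apart.

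A pair of sequences is shown first because it bears on how far the values of *Ahcy* can be read. *Ahcy* (ENSMUSG00000027597, adenosylhomocysteine hydrolase) has a copy in the mouse genome, *Gm4737* (ENSMUSG00000048087), a gene of 1 exon at 46152985 to 46155077 of chromosome 16 (GRCm38, minus strand). The transcripts of the pair aligned over 2083 bases with 99.7% identity and without gaps, and the longest stretch without a difference was 575 bases. The window of 80 coding bases with the most differences, in exon 5 of *Ahcy*, held 2 of them, shown in capitals. The windows lie at chr2:155064847-155064926 and chr16:46154488-46154567, both on the minus strand.
Ahcy: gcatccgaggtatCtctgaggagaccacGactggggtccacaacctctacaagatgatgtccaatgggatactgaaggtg
Gm4737: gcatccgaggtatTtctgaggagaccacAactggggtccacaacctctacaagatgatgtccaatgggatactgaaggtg
A read that lies within a shared stretch cannot be assigned to either gene by their sequence. Of the stretches of 50 bases in the *Ahcy* transcripts, 66.0% also occur in *Gm4737*, and 68.7% in any of 4 other listed genes. For the other 8 members, this share lay between 0 in *Mthfd1* and *Mthfd2* and 14.2% in *Mat2a*.

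A further set of sequences is shown because it marks *Mat2a* (ENSMUSG00000053907), which encodes the catalytic subunit of the methionine adenosyltransferase of most tissues. Its 3′ UTR holds hairpins with the letters TACAGAGAA, written here as DNA, at which METTL16 is known to tie the processing and stability of the mRNA to the supply of S-adenosylmethionine. The *Mat2a* transcript, of 2804 bases, contained the motif TACAGAGAA 5 times and the variant TACAGAAAA once, searched on the transcript strand only. All 6 lie in exon 9 (GRCm38, chromosome 6, minus strand) and do not overlap. They are given as windows of 29 bases with the motif in capitals, in the order of the mRNA with the variant last.
chr6:72434235-72434263: tggcgtaggtTACAGAGAAgccttcaagc
chr6:72433451-72433479: ccttgtgataTACAGAGAAgtcacagggc
chr6:72433272-72433300: ctggtgtagcTACAGAGAAaccagcttcc
chr6:72433157-72433185: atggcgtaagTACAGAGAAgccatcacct
chr6:72432938-72432966: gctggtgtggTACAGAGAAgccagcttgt
chr6:72433046-72433074: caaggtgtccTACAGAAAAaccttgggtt
At least 1 TACAGAGAA was present in the longest coding transcript of 4.16% of 21901 protein-coding genes, whose lengths differ, and only *Mat2a* held as many as 6 matches of both forms together.

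None of the 9 genes passed the thresholds of the study, an adjusted p-value no greater than 0.05 together with a log2 fold change of 1 or more in either direction (limma with Benjamini-Hochberg adjustment). Of the 11924 genes tested, 0.0% passed them, with a smallest adjusted p-value of 0.0934 (limma), so the count says nothing particular of these enzymes. The study itself used DESeq2, a different test, and reported genes past these thresholds, so this count does not repeat its test. The 9 adjusted p-values lay between 0.289 and 0.891. Before adjustment, p was no greater than 0.05 for 2 of the 9, which were higher in oEV-EMT, *Mthfd1* and *Shmt1*, and for 0 in the lower direction. The shares among all tested genes were 12.8% higher and 2.55% lower. The groups were fully apart in 1 of the 9 genes, *Mthfd1*, with oEV-EMT the higher, and in 0 with oEV-EMT the lower, against 18.1% and 4.34% of all tested genes. This count rose when either of 2 libraries was left out. Without library oEV-EMT 3 it was 5, with *Shmt1*, *Tdh*, *Gldc* and *Ahcy* joining. Without library oEV-ctrl 3 it was 4, with *Shmt1*, *Gldc* and *Ahcy*. Leaving out a library can only keep or raise such a count, for any set of genes. The share of all tested genes with a library left out is not given here, so the rise is not read as particular to the members. The median log2 fold change of the 9 genes was 0.28, or 0.11 relative to all genes, with 7 of them over that median and 2 under it.

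**Figure D1:**
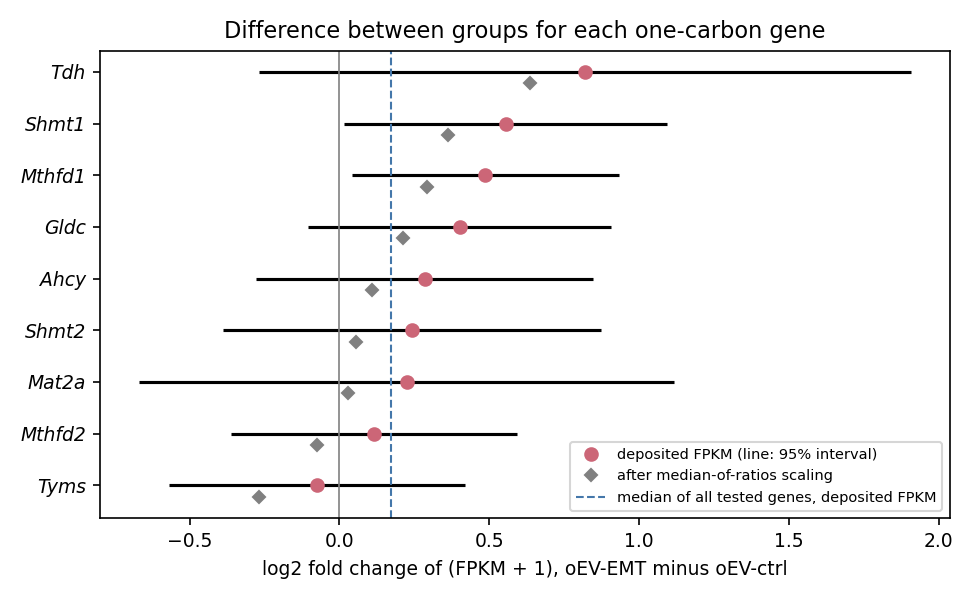
Log2 fold change of (FPKM + 1) between oEV-EMT and oEV-ctrl for the 9 genes, with 95% intervals from limma as lines, the values after median-of-ratios scaling as diamonds, and the median of all tested genes (0.17) as a dashed line. The intervals of 7 genes include 0, and those of *Shmt1* and *Mthfd1* lie just above it.

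The gene for the entry of threonine varied most among the 9. *Tdh* (ENSMUSG00000021953), threonine dehydrogenase, lies on chromosome 14 (63492347 to 63509092, minus strand). Its FPKM was 39.2, 12.8 and 10.4 in oEV-EMT, against 10.6, 6.39 and 12.5 in oEV-ctrl. Library oEV-EMT 1 stood alone at the top, while the other 2 oEV-EMT libraries lay in or next to the range of the controls. The log2 fold change was 0.82, with a standard error of 0.47 and a 95% interval from -0.27 to 1.91 (limma, adjusted p = 0.447). It was 0.26 without library oEV-EMT 1, which was also the library with the greatest depth and the highest sum of epiblast markers. The part of these measures in the *Tdh* value was not tested. *Gcat* (ENSMUSG00000006378), whose enzyme splits the product of threonine dehydrogenase into glycine and acetyl-CoA, varied less, with 15.3, 16.8 and 12.8 FPKM in oEV-EMT and 12.1, 7.79 and 13.6 in oEV-ctrl. The ratio of *Tdh* to *Gcat* was 2.57 in library oEV-EMT 1 and between 0.763 and 0.922 in the other 5 libraries.

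Over the 6 libraries, the protein-coding genes whose log2(FPKM + 1) followed that of *Tdh* most closely were *Sec23ip*, *Tfe3* and *Snw1*, with Pearson correlations of 0.994, 0.993 and 0.993. With 6 libraries and 11924 genes these values only describe the shape, a single high library. In library oEV-EMT 1, *Tfe3*, which encodes a transcription factor of the MiT family, had 5.06 FPKM, against 1.66 to 2.46 in the others.

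Glycine cleavage takes a carbon unit from glycine through a complex of 4 proteins, encoded by *Gldc*, *Amt*, *Gcsh* and *Dld*. *Gldc* (ENSMUSG00000024827), the decarboxylase, lies on chromosome 19 from 30098447 to 30175429 on the minus strand. It had 24.7, 24.3 and 17.9 FPKM in oEV-EMT and 13.6, 17.2 and 19.0 in oEV-ctrl. The groups overlapped through libraries oEV-EMT 3 and oEV-ctrl 3, and the log2 fold change was 0.40 with a standard error of 0.23 (adjusted p = 0.425, limma). *Gcsh*, for the lipoyl-bearing H-protein, was the subunit with the clearest separation, at 116, 140 and 107 FPKM against 90.1, 63.4 and 85.4, with a log2 fold change of 0.60 and an adjusted p-value of 0.234. *Amt*, the aminomethyltransferase, had 16.4, 7.93 and 8.03 FPKM in oEV-EMT and 4.92, 6.82 and 8.25 in oEV-ctrl, which overlapped. *Dld*, whose lipoamide dehydrogenase also serves pyruvate dehydrogenase, had a log2 fold change of -0.001, with an interval from -0.47 to 0.46. The subunits thus did not share 1 pattern over the libraries, and the ratio of *Gldc* to *Amt* overlapped between the groups, at 1.51 to 3.06 in oEV-EMT and 2.30 to 2.77 in oEV-ctrl.

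Serine hydroxymethyltransferase passes a carbon from serine to folate, in the cytosol as the product of *Shmt1* and in mitochondria as that of *Shmt2*. *Shmt1* (ENSMUSG00000020534; chromosome 11, 60788104 to 60811718, minus strand) had 37.1, 34.2 and 22.8 FPKM in oEV-EMT and 21.7, 17.2 and 23.5 in oEV-ctrl. Libraries oEV-EMT 1 and 2 stood above all controls and library oEV-EMT 3 among them. Its log2 fold change was 0.55 with a standard error of 0.24 and an interval from 0.01 to 1.09 (limma, unadjusted p = 0.0451, adjusted p = 0.313). *Shmt2* (ENSMUSG00000025403; chromosome 10, 127517123 to 127522444, minus strand) had 22.1, 14.2 and 10.6 FPKM in oEV-EMT and 14.7, 9.88 and 13.3 in oEV-ctrl. Its log2 fold change of 0.24 (interval from -0.39 to 0.87, adjusted p = 0.711) was -0.0064 after upper-quartile scaling. The cytosolic form was the higher of the pair in every library. The ratio of *Shmt2* to *Shmt1*, which no scaling between libraries can alter, was 0.596, 0.414 and 0.463 in oEV-EMT and 0.681, 0.574 and 0.566 in oEV-ctrl, with overlap through library oEV-EMT 1.

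The enzymes that make serine did not move as a block. *Phgdh*, for the phosphoglycerate dehydrogenase at the head of the pathway, had 107, 99.1 and 73.4 FPKM in oEV-EMT and 59.8, 40.4 and 59.9 in oEV-ctrl, without overlap (log2 fold change 0.80, adjusted p = 0.184, limma). The next enzyme, of *Psat1*, had a log2 fold change of 0.08, and the last, of *Psph*, of -0.30 (adjusted p = 0.874 and 0.538). The ratio of *Phgdh* to *Psat1*, a pair chosen after the values were seen, lay between 0.547 and 0.941 in oEV-EMT and between 0.328 and 0.527 in oEV-ctrl. Another 4 listed genes, processed pseudogenes, share at least 10% of the 50-base stretches of *Phgdh*, and 70.0% of the FPKM of all 5 genes together was listed under *Phgdh*. For the 5 genes together the log2 difference was 0.92. *Psph* overlaps the far more abundant *Cct6a* on the opposite strand over 10.4% of its exon bases, and whether the authors counted by strand is not given in the sources used here.

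Methylenetetrahydrofolate dehydrogenase occurs as the cytosolic, trifunctional product of *Mthfd1* and the mitochondrial one of *Mthfd2*. *Mthfd1* (ENSMUSG00000021048) lies on the plus strand of chromosome 12 from 76255298 to 76319803. It had 54.0, 48.2 and 55.2 FPKM in oEV-EMT and 34.2, 34.1 and 43.7 in oEV-ctrl. Every oEV-EMT library was above every oEV-ctrl library, with a gap between 43.7 and 48.2. The log2 fold change was 0.49 with a standard error of 0.20 and an interval from 0.04 to 0.93, or 0.32 relative to all genes (limma, unadjusted p = 0.0354, adjusted p = 0.289). Leaving out 1 library at a time gave 0.43 to 0.60, but the groups overlapped after upper-quartile scaling. None of its 50-base stretches occurs in another listed gene. *Mthfd2* (ENSMUSG00000005667; chromosome 6, 83305691 to 83325908, minus strand) had 24.6, 34.1 and 28.4 FPKM in oEV-EMT and 30.7, 24.6 and 24.6 in oEV-ctrl, which intermingled. Its log2 fold change of 0.11 (interval from -0.36 to 0.59, adjusted p = 0.823) was -0.06 relative to all genes and -0.08 after median-of-ratios scaling. The ratio of *Mthfd2* to *Mthfd1* was 0.455 to 0.708 in oEV-EMT and 0.563 to 0.898 in oEV-ctrl. Of the other mitochondrial forms, *Mthfd1l*, for formyltetrahydrofolate synthetase, had 5.22, 3.29 and 3.26 FPKM against 3.10, 2.64 and 2.47, without overlap (log2 fold change 0.38, adjusted p = 0.464). The groups overlapped in *Mthfd1l* after median-of-ratios scaling. *Mthfd2l*, the close relative of *Mthfd2*, was at or below 0.273 FPKM in all libraries and was not tested.

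**Figure D2:**
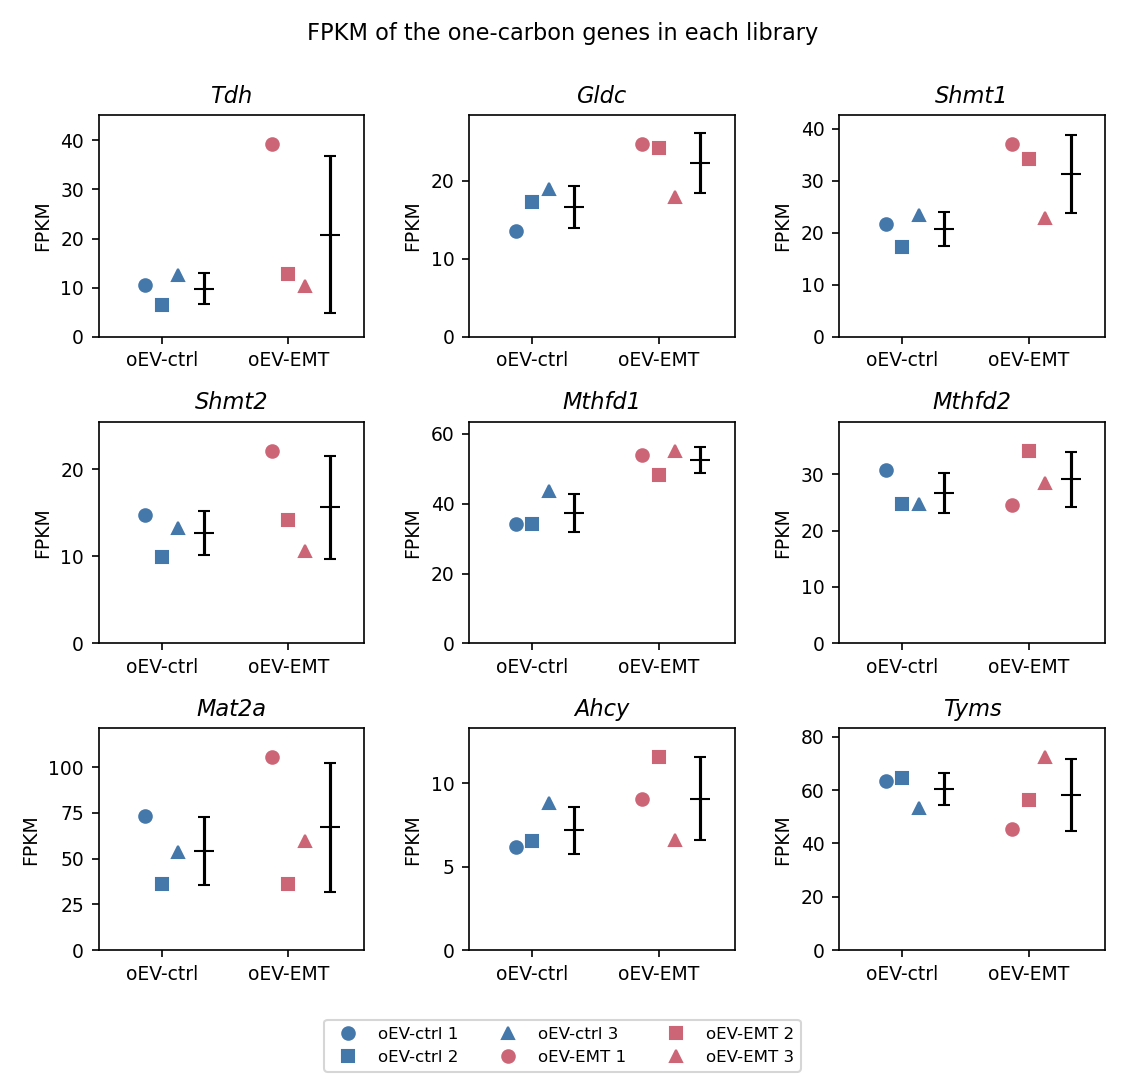
FPKM of each of the 9 genes in the 3 oEV-ctrl and 3 oEV-EMT libraries (linear axes from 0), with marker shapes for the replicate number and the mean with its SD beside the points. The groups are apart in *Mthfd1* alone. Library oEV-EMT 1 stands well above the others in *Tdh*, *Mat2a* and *Shmt2*, and is also the highest, by less, in *Shmt1* and *Gldc*.

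Thymidylate synthase uses a folate carbon to make the T of DNA. *Tyms* (ENSMUSG00000025747; chromosome 5, 30058202 to 30073617, minus strand) had 45.5, 56.5 and 72.4 FPKM in oEV-EMT and 63.5, 64.4 and 53.4 in oEV-ctrl. It was the only member with a log2 fold change below 0, at -0.08 with an interval from -0.57 to 0.42 (limma, adjusted p = 0.891). The value was -0.25 relative to all genes, and 0.02 when each library was scaled to a sum of 1000000. Of the 4 other genes of the thymidylate branch, 3 were higher in oEV-EMT without overlap, against 18.1% of all tested genes. That count is of the deposited values. After median-of-ratios scaling the groups overlapped in *Dut*, while *Tk1* and *Dtymk* stayed apart. *Tk1*, the thymidine kinase of the salvage route, had 112, 143 and 141 FPKM in oEV-EMT and 65.0, 72.1 and 97.3 in oEV-ctrl (log2 fold change 0.76, adjusted p = 0.174, limma). *Dtymk*, the kinase that follows both routes, had 446, 478 and 539 FPKM against 307, 330 and 335 (0.59, adjusted p = 0.188), and *Dut*, for the dUTPase that supplies dUMP, had 160, 183 and 180 against 129, 107 and 142 (0.47, adjusted p = 0.288). The fourth, *Dctd*, for dCMP deaminase, had 11.7, 15.7 and 12.6 FPKM against 7.81, 8.63 and 13.0, which overlapped (0.43, adjusted p = 0.430).

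Ratios within a library were also taken of *Tyms* to these genes, as pairs chosen after the values were seen. The ratio of *Tyms* to *Tk1* was 0.394 to 0.513 in oEV-EMT and 0.549 to 0.977 in oEV-ctrl, and that of *Tyms* to *Dtymk* 0.102 to 0.134 against 0.159 to 0.207, so the groups were apart in both. The ratio of *Tyms* to *Dut* overlapped, as did the 6 listed ratios shown with it. These are descriptions, with no test.

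**Figure D3:**
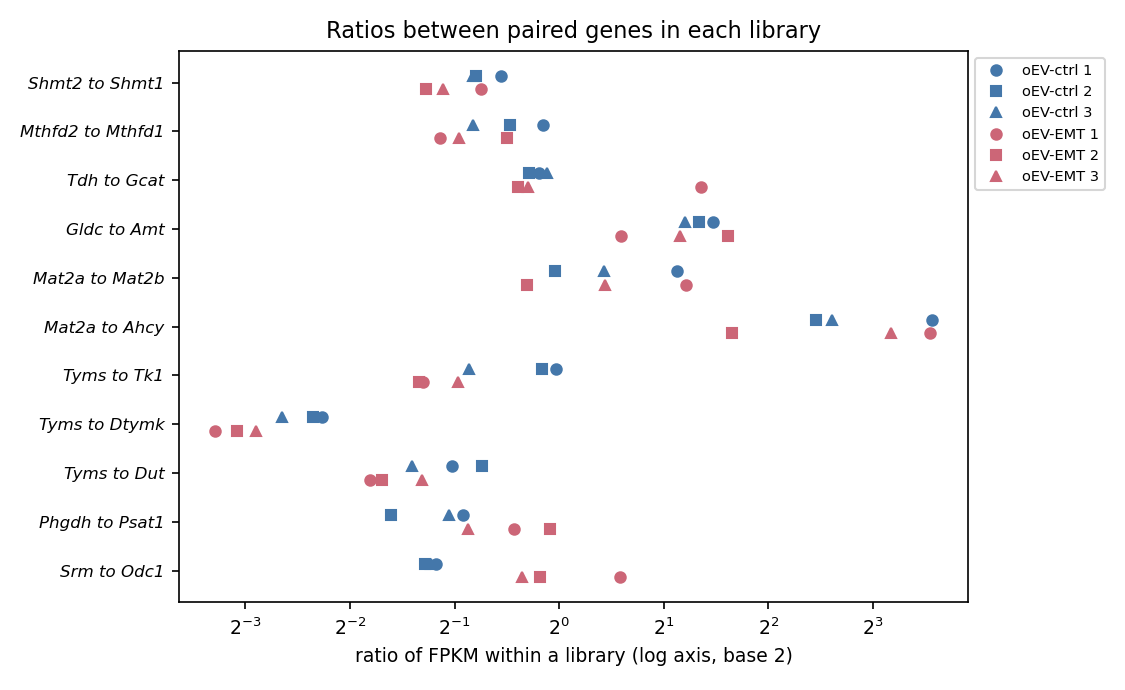
Ratios of FPKM between paired genes in each library on a log axis, oEV-ctrl in blue and oEV-EMT in red, with marker shapes for the replicate number. The first 6 pairs are listed ones and the last 5 were chosen after the values were seen. The ratios of *Tyms* to *Tk1* and *Dtymk* lie lower in oEV-EMT, and the ratio of *Tdh* to *Gcat* has 1 high library.

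At the methionine end, *Mat2a* (chromosome 6, 72432799 to 72439558, minus strand) had 105, 36.3 and 59.3 FPKM in oEV-EMT and 73.1, 36.1 and 53.6 in oEV-ctrl. Both groups held 1 high, 1 middle and 1 low library, and the spread within a group was larger than the difference between them. The log2 fold change was 0.22 with a standard error of 0.39 and an interval from -0.67 to 1.12 (limma, adjusted p = 0.812). It was -0.16 without library oEV-EMT 1 and -0.04 after upper-quartile scaling. *Mat2b*, for the regulatory subunit, was far steadier, with 45.5, 45.0 and 43.9 FPKM in oEV-EMT and 33.5, 37.1 and 39.9 in oEV-ctrl, without overlap (log2 fold change 0.28, adjusted p = 0.508). The groups overlapped in *Mat2b* after median-of-ratios scaling. *Mettl16*, whose product binds the hairpins shown above, had 4.35, 2.98 and 2.35 FPKM against 2.70, 2.20 and 3.03, and *Mat1a*, the liver form, was listed at 0 throughout.

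*Ahcy* (chromosome 2, 155059310 to 155074497, minus strand) had 9.05, 11.6 and 6.60 FPKM in oEV-EMT and 6.17, 6.57 and 8.80 in oEV-ctrl, which overlapped, with a log2 fold change of 0.28 and an interval from -0.28 to 0.85 (limma, adjusted p = 0.621). Its copy *Gm4737* was listed higher than *Ahcy* in all 6 libraries, at 16.0, 22.5 and 10.7 FPKM in oEV-EMT and 18.0, 12.9 and 16.9 in oEV-ctrl. *Ahcy* received from 34.0% to 38.1% of the sum of both in oEV-EMT and from 25.5% to 34.2% in oEV-ctrl. The sum itself had a log2 difference of 0.09, against 0.28 for *Ahcy* alone. A processed pseudogene, *Gm9826*, shares 30.2% of the stretches of *Ahcy* and was listed at 0.940 to 1.83 FPKM. With it added, *Ahcy* held 31.7% of the sum and the log2 difference was 0.12, so the level of *Ahcy* and the size of its difference are uncertain.

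**Figure D4:**
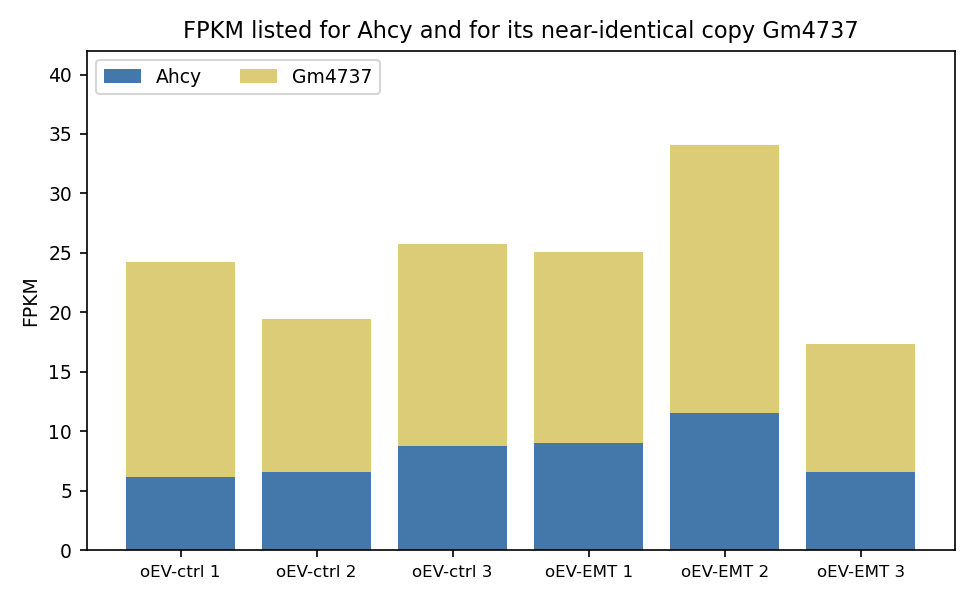
Stacked bars of the FPKM listed for *Ahcy* (blue) and for *Gm4737* (yellow) in each library, on an axis from 0. The copy holds the larger part of every bar, and the heights of the bars overlap between the groups, at 17.3 to 34.1 in oEV-EMT and 19.5 to 25.7 in oEV-ctrl.

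Of the genes that recycle methionine, *Mtr*, for methionine synthase, was at 0.763, 1.04 and 0.506 FPKM in oEV-EMT and 1.14, 0.817 and 0.971 in oEV-ctrl and fell under the minimum for testing. *Mtrr*, the reductase that restores methionine synthase, had 16.7, 11.3 and 11.8 FPKM in oEV-EMT and 7.85, 8.11 and 9.30 in oEV-ctrl (log2 fold change 0.58, adjusted p = 0.267, limma), and *Mtap*, of methionine salvage, 18.1, 13.5 and 13.9 against 8.79, 9.42 and 10.0 (0.63, adjusted p = 0.222). The groups did not overlap in either gene. Of the 8 tested genes of the methionine cycle, 4 were higher in oEV-EMT without overlap and 4 overlapped, against 18.1% of all tested genes higher without overlap. *Mat2b*, counted among the 4 higher, overlapped after median-of-ratios scaling. *Ahcyl2*, an adenosylhomocysteine hydrolase-like gene, was also higher without overlap, at 3.28 to 4.48 FPKM in oEV-EMT and 1.44 to 2.67 in oEV-ctrl.

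In order of mean FPKM, the members in the oEV-ctrl libraries were *Tyms* (60.4), *Mat2a* (54.3), *Mthfd1* (37.3), *Mthfd2* (26.7), *Shmt1* (20.8), *Gldc* (16.6), *Shmt2* (12.6), *Tdh* (9.83) and *Ahcy* (7.18). Only the steps from *Mthfd1* to *Mthfd2* and from *Mthfd2* to *Shmt1* separated neighbours without overlap. The order in oEV-EMT was *Mat2a* (67.0), *Tyms* (58.1), *Mthfd1* (52.5), *Shmt1* (31.4), *Mthfd2* (29.0), *Gldc* (22.3), *Tdh* (20.8), *Shmt2* (15.6) and *Ahcy* (9.07), and only *Mthfd1* and *Shmt1* were apart from each other there. Against all tested genes, the mean levels lay between percentile 51.2 for *Ahcy* and percentile 85.1 for *Mat2a*.

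The wider pathway was described by 53 further genes in 9 roles, of which 44 were expressed highly enough to be tested. Of these, 0 passed the thresholds of the study (limma), with adjusted p-values from 0.118 upwards. Before adjustment, p was no greater than 0.05 for 16 genes higher and 0 lower in oEV-EMT, against 12.8% and 2.55% of all tested genes. In 21 of the 44 the groups were fully apart with oEV-EMT higher, and in 0 with oEV-EMT lower, against 18.1% and 4.34% of all tested genes. After median-of-ratios scaling these counts were 12 and 2, against 9.85% and 10.3% of all genes tested under that scaling. The median log2 fold change of the 44 genes was 0.25 relative to all genes, and 35 of the 44 were above the median of all genes. For the 9 members the relative median was 0.11. The gene list was chosen with earlier results of these data known, and the count without overlap was added after seeing the data. These counts therefore only describe the list, and their difference from the shares of all genes was not tested.

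Folate uptake opened this wider list. *Slc46a1*, the proton-coupled folate transporter, had 43.2, 43.8 and 31.6 FPKM in oEV-EMT and 14.6, 19.6 and 30.6 in oEV-ctrl (log2 fold change 0.89, adjusted p = 0.198, limma). *Slc19a1*, the reduced folate carrier, had 9.18, 4.25 and 4.95 against 2.86, 3.28 and 3.65. *Folr1*, the folate receptor and the most abundant of the 3, had 359, 357 and 308 against 287, 219 and 257. These 3 did not overlap between the groups and were named for their unadjusted p-values. In *Folr1* the groups overlapped after median-of-ratios scaling. The other 3 of the 6 genes of uptake and retention overlapped, namely *Slc25a32*, the transporter into mitochondria (log2 fold change 0.03), *Fpgs*, whose enzyme adds the glutamates that retain folate (0.25), and *Ggh*, whose enzyme removes them (0.26). Among all tested genes, 18.1% were higher in oEV-EMT without overlap. Of the 6 purine synthesis genes, all were above the median of all genes, 4 overlapped between the groups and 2 did not, against the 18.1% of all tested genes. The latter were *Adsl* with 26.7, 15.2 and 20.7 FPKM against 10.1, 7.24 and 14.2, and *Paics* with 199 to 216 against 107 to 163. After median-of-ratios scaling the groups overlapped in *Adsl* and stayed apart in *Paics*.

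In the branches that draw on the methionine cycle, *Srm*, for spermidine synthase, had the smallest adjusted p-value of the list. It had 61.8, 72.4 and 58.8 FPKM in oEV-EMT and 36.9, 23.2 and 33.3 in oEV-ctrl (log2 fold change 1.05, standard error 0.23, limma adjusted p = 0.118). It was the only gene of the list past both thresholds with array weights, at 1.16 with an adjusted p-value of 0.0353 (limma). In that setting 104 of all tested genes (0.872%) passed. These library weights were estimated from the spread of the same expression values, not from a measure of RNA quality. In libraries 1 to 3 they were 0.352, 2.40 and 0.672 in oEV-EMT and 0.760, 1.28 and 1.81 in oEV-ctrl. *Odc1*, for ornithine decarboxylase, the first enzyme of polyamine synthesis, had a log2 fold change of -0.17 (adjusted p = 0.806). The ratio of *Srm* to *Odc1*, chosen after the values were seen, was 0.779 to 1.50 in oEV-EMT and 0.411 to 0.442 in oEV-ctrl. In transsulfuration, *Cth* had 70.2, 33.7 and 41.9 FPKM against 20.3, 31.6 and 27.6 without overlap, and *Cbs* 11.4, 16.1 and 9.89 against 7.01, 6.66 and 10.4 with overlap. After median-of-ratios scaling *Cth* overlapped as well.

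**Figure D5:**
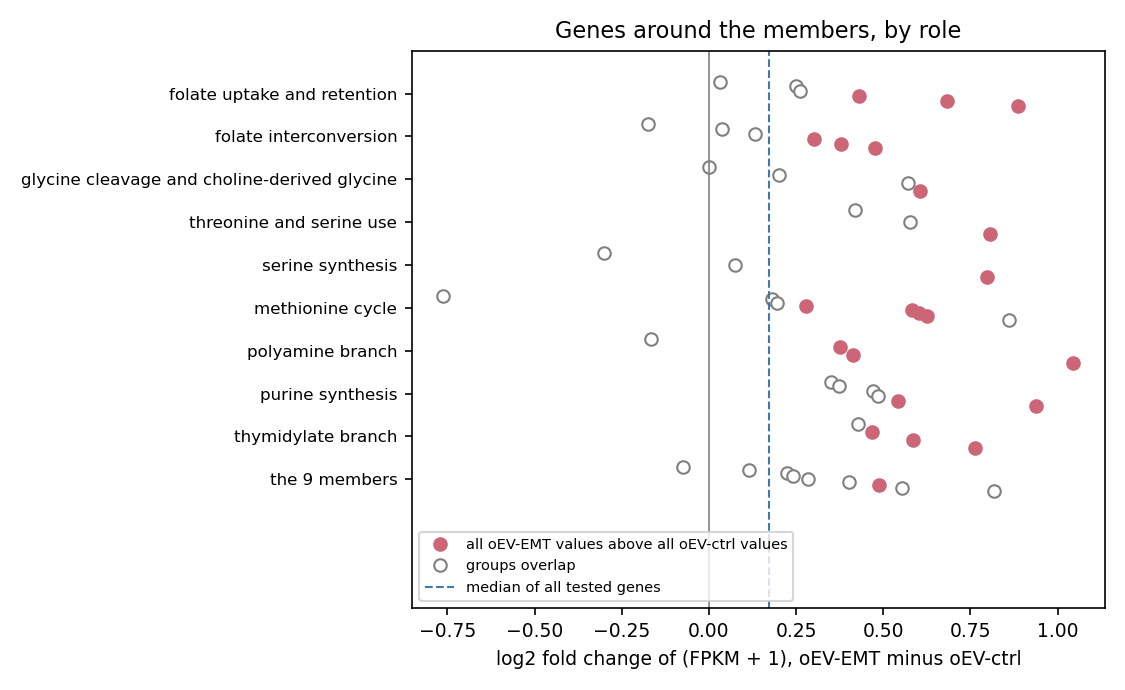
Log2 fold change of (FPKM + 1) between oEV-EMT and oEV-ctrl for the 44 tested genes of the wider pathway by role and for the 9 members, filled where the groups did not overlap and open where they did. Filled points number 21 of 44 in the wider pathway and 1 of 9 among the members, and the dashed line is the median of all tested genes (0.17).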

How the data were processed

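The authors aligned the reads to mm10 and assembled transcripts with StringTie along a reference annotation (per the labels and methods). The aligner and the strand setting are not given in the sources used here. The deposited table lists 55774 genes, 287 of them unannotated, with 1 value for each library. Although the methods name TPM, each library summed to over 1000000 and the sums differed, so the deposited values were taken as FPKM. No interval from counting was computed, since read totals are not given.

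Symbols and coordinates came from GENCODE M21 on GRCm38, which 55227 identifiers matched. The members and gene lists were chosen with earlier results of these data known. Genes that reached 1 FPKM in 3 or more libraries were fitted as log2(FPKM + 1) with limma 3.58.1 in R 4.3.3, with trended and robust variance and Benjamini-Hochberg adjustment over 11924 genes. The procedure was tested on simulated data. Genes were named if they were members, their direct partners, or pathway genes with an unadjusted p-value of at most 0.05. *Dctd*, *Fpgs*, *Ggh*, *Mat1a*, *Mettl16*, *Odc1* and *Slc25a32* were added after their values were seen, as were the pairs and genes said to be. Where 2 identifiers carried 1 symbol (*Gcat*), the more abundant was used. Shared sequence was counted in stretches of 50 bases of GENCODE transcripts on either strand. Python 3.11.15 and matplotlib 3.10.9 drew the figures. Blastocyst rates, fluorescence and RT-PCR data were not analysed here, and some listed genes and 1 listed ratio are not reported here.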

Additional observations from a re-analysis of the deposited data

How the results depend on the processing

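None of the 9 members passed both thresholds under any of the 16 alternatives, the smallest adjusted p-value being 0.133. The sign of a member's fold change turned in 12 cases, all in *Mat2a*, *Mthfd2*, *Shmt2* and *Tyms*. On the log2 scale, upper-quartile scaling gave -0.038 for *Mat2a*, -0.14 for *Mthfd2* and -0.0064 for *Shmt2*, and median-of-ratios scaling -0.077 for *Mthfd2*. Scaling to a sum of 1000000 gave *Tyms* 0.017, and 0.032 without the unannotated entries. Array weights gave *Mat2a* -0.16. With each library left out, *Mat2a* lay between -0.16 and 0.59, *Mthfd2* between -0.0046 and 0.22, *Shmt2* between -0.026 and 0.47 and *Tyms* between -0.24 and 0.085. The count of genes past both thresholds, 0 in the deposited values, was 104 with array weights and from 0 to 17 with each library left out (17 without oEV-ctrl 3, 4 without oEV-EMT 1 and 1 without oEV-EMT 3). With the replicate block it was 21, none of them a member or a pathway gene. Same-numbered libraries deviated together with correlations of 0.119, -0.044 and 0.039, so the numbers were not taken as pairs. Members higher without overlap numbered 0 after upper-quartile scaling and 1 to 5 with each library left out. Pathway genes past both thresholds numbered 1 with array weights. Those higher without overlap, a count added after seeing the data, numbered 12 after median-of-ratios scaling, against 9.85% of all tested genes. They numbered 8 after upper-quartile scaling and 22 to 28 with each library left out, settings for which the share of all genes is not given here. Leaving out a library can only keep or raise a count without overlap, for members and pathway genes alike. Beyond that, the cause of the shifts between settings was not tested. With 3 pools a group, 95% intervals of the members were 0.89 to 2.18 wide on the log2 scale.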

Other observations

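Betaine and choline offer another route of carbon units to methionine, and its genes differed far more between libraries than between groups. *Bhmt*, for betaine-homocysteine methyltransferase, had 10.1, 189 and 108 FPKM in oEV-EMT, against 14.8, 36.0 and 64.7 in oEV-ctrl, a span of 18.7 times. The log2 fold change was 0.86, with a 95% interval from -2.53 to 4.25 (limma, adjusted p = 0.787). *Bhmt2* had 0.199, 1.52 and 0.945 FPKM in oEV-EMT and 0.421, 0.636 and 1.01 in oEV-ctrl, and *Dmgdh*, for dimethylglycine dehydrogenase, which acts on the product of this reaction, 0.782, 3.32 and 1.54 against 0.857, 1.25 and 2.07. In all 3 genes library oEV-EMT 1 was the lowest, oEV-ctrl 1 the next and oEV-EMT 2 the highest. The genes are neighbours on chromosome 13 of GRCm38, where *Bhmt* runs from 93616675 to 93637961, *Bhmt2* from 93655720 to 93674302 and *Dmgdh* from 93674433 to 93752833. *Mat2a* had its highest values in the libraries where *Bhmt* was lowest, oEV-EMT 1 and oEV-ctrl 1. The remaining libraries did not keep this opposite order. *Mat2a* had 36.1 FPKM and *Bhmt* 36.0 in oEV-ctrl 2, against 59.3 and 108 in oEV-EMT 3. These genes were singled out after their values were seen.

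*Ahcyl1*, like *Ahcyl2* related to *Ahcy*, had 7.39, 7.57 and 1.21 FPKM in oEV-EMT and 9.34, 9.31 and 6.28 in oEV-ctrl. Its log2 fold change of -0.76 (limma, adjusted p = 0.512) was -0.12 without library oEV-EMT 3.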
